A study of Homo sapiens with 12 samples.

Results

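The transcription factor p53 switches on a set of genes that stop the cell cycle, repair DNA, adjust metabolism or kill the cell, and 10 of these targets were followed here in RCC4, an established cell line of clear cell renal carcinoma. The targets were CDKN1A, GADD45A and BTG2 (growth arrest), MDM2 and PPM1D (feedback on p53), PMAIP1, BBC3 and FAS (cell death), and TP53I3 and SESN1 (redox state and metabolism). They were taken by symbol, and a gene was measured where the array carried a probe set that the platform annotation gives to that symbol alone. This held for 8 of the 10 genes, with 16 probe sets, among 11963 genes measured by 19064 such probe sets. BTG2 had no probe set named for it and the only BBC3 probe set was shared with other genes, so both were not analysed here.

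In unstressed cells p53 is kept low by MDM2, a ubiquitin ligase that marks it for destruction, and by PPM1D (WIP1), a phosphatase that removes activating phosphates from p53 and its kinases. Both are p53 targets, so they form negative feedback loops. CDKN1A encodes p21, an inhibitor of cyclin-dependent kinases through which p53 holds the cell cycle, and PMAIP1 (NOXA) encodes a BH3-only protein that opens the mitochondrial path to apoptosis. Several of these genes are not read by p53 alone: CDKN1A, GADD45A and PMAIP1 also respond to other stress pathways, including the integrated stress response in which ATF4 acts.

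Expression was measured on 12 Affymetrix arrays, 3 biological replicates in each of 4 groups. Control cultures received a non-targeting siRNA (siNT). In siMESH1 cultures MESH1 was silenced with 1 siRNA, in siATF4 cultures ATF4 was silenced with a pool, and siMESH1+siATF4 cultures received both. MESH1 is the product of HDDC3 and removes a phosphate from cytosolic NADPH. All cultures were transfected with 40 pmol of siRNA by a lipid reagent and collected after 72 h, and how that amount was divided in siMESH1+siATF4 is not given in the sources used here. RCC4 is 1 cell line, and because a single siRNA was used against MESH1, loss of MESH1 and any other effect of that sequence cannot be told apart. The same holds for loss of ATF4 and other effects of the ATF4 pool. The study set aside genes changed by siATF4 alone as off-target, citing low ATF4 in unstressed RCC4 cells. Here genes called in siATF4 vs siNT are kept, CDKN1A, GADD45A, PPM1D and TP53I3 among them. The question was which part of the response to MESH1 silencing depends on ATF4.

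All values are differences on the log2 scale: the deposited signals were set against the siNT mean and hold no absolute level, and levels of different genes or of cell type markers could not be compared. A gene was called changed at a limma adjusted p under 0.05 over all genes together with a difference of at least 0.5 on the log2 scale, called the fold minimum below. With 3 arrays a group the precision is limited by their number. The limma p-values weigh a difference against the spread between cultures within groups, estimated over the 4 groups with help from all genes. The comparisons with siNT share the siNT arrays and are given side by side only. In bulk RNA, fewer cells that carry a transcript and less of it per cell cannot be told apart.

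ATF4 itself lay between -2.33 and -2.29 on the siATF4 arrays and at -2.27, -2.46 and -2.23 on the siMESH1+siATF4 arrays, against -0.02, -0.10 and 0.04 in siMESH1. HDDC3 was not analysed here. Centring the arrays on 11 housekeeping genes, which averaged -0.33, -0.15 and -0.22 in siMESH1, siATF4 and siMESH1+siATF4, raised the median of all genes to 0.36, 0.17 and 0.23. Under that scaling the calls over all genes in siMESH1 vs siNT turned from 337 higher and 643 lower to 2526 and 291, in siATF4 vs siNT from 298 and 482 to 681 and 324, and in siMESH1+siATF4 vs siNT from 526 and 628 to 1505 and 372. In the interaction they turned from 414 and 102 to 196 and 1261. Centring on the housekeeping median moved them less, to 1216 and 375, 352 and 440, 895 and 471, and 277 and 324 in the same 4 comparisons, so that in siATF4 vs siNT the lower calls stayed in the majority. Some of the housekeeping genes were themselves called lower, TFRC (-1.17), HPRT1 (-0.66) and PGK1 (-0.53) in siMESH1, PGK1 (-0.61) and YWHAZ (-0.61) in siATF4, and PGK1 (-0.94) with both siRNAs. Directions below are relative to the deposited scale unless a scaling is named. Between the 3′ and 5′ control probe sets of ACTB the difference, relative to siNT, was -0.29 in siATF4 and -0.30 in siMESH1+siATF4 (exact two-sided permutation p = 0.1 each, the smallest that 3 against 3 allows), and the mean of 18 spike-in probe sets was 0.25 higher in siATF4 (p = 0.1). Their part in the results was not tested. None of 12 measured markers of leukocytes and endothelium was called by limma in any comparison, and 0 to 4 of them reached an unadjusted p under 0.05, the 4 in siATF4 vs siNT. In that comparison CD14 (0.25, adjusted p = 0.030), ITGAM (0.24, adjusted p = 0.041) and LYZ (-0.34, adjusted p = 0.0045) missed only the fold minimum.

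RefSeq promoter windows (GRCh38.p14, from 250 bases before to 50 bases after a start site) were given for 9 of the 10 genes, 16 windows in all, and GADD45A had no entry. They are printed for the 4 measured genes called against siNT in siMESH1, and for FAS and SESN1. Both FAS and SESN1 had several windows, and only the window printed here held an exact p53 half-site match. The windows are chr6:36678464-36678763 (plus strand) for CDKN1A, chr2:24084785-24085084 (minus strand) for TP53I3, chr17:60599943-60600242 (plus strand) for PPM1D, chr18:59899746-59900045 (plus strand) for PMAIP1, chr10:88991181-88991480 (plus strand) for FAS and chr6:109008939-109009238 (minus strand) for SESN1, each read 5′ to 3′ on the gene's strand. Capitals mark a p53 half-site in FAS and SESN1 and the cAMP response element core TGACGT, on either strand, in PPM1D and PMAIP1.
CDKN1A: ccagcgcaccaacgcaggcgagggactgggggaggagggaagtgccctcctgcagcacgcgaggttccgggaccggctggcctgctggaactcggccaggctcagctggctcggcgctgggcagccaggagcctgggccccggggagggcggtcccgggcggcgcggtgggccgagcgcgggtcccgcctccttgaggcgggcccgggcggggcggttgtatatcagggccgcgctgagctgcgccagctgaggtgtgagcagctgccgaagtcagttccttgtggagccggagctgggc
TP53I3: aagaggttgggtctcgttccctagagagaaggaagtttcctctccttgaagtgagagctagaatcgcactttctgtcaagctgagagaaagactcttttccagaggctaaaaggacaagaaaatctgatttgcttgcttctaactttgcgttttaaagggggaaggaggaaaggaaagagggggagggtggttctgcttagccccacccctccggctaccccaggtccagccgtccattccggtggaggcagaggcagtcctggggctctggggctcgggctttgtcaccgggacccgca
PPM1D: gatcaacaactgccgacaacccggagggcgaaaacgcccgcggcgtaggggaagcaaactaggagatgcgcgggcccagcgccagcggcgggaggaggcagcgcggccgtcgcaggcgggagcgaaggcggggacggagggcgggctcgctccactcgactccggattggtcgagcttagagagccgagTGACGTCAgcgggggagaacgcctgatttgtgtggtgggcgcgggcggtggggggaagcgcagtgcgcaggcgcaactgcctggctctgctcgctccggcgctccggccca
PMAIP1: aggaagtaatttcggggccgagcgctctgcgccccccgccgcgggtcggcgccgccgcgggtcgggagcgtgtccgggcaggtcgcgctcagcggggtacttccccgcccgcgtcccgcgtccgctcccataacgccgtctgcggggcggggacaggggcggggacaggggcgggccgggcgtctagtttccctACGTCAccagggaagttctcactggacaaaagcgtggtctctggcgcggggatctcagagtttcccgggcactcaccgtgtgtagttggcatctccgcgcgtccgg
FAS: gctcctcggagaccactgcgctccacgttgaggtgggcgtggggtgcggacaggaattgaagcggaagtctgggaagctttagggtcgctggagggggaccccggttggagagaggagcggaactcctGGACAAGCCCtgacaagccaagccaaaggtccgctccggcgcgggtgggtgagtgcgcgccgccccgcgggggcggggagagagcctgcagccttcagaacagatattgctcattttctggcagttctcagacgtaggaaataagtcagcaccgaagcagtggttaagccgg
SESN1: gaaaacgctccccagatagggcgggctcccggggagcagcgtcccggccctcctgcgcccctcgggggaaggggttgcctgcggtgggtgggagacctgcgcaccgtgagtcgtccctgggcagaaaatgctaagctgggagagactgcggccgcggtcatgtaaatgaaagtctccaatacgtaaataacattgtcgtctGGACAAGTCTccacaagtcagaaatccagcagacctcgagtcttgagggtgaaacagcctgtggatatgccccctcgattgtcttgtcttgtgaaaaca

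Only exact matches to the p53 half-site RRRCWWGYYY were counted, on either strand (R: A or G, W: A or T, Y: C or T). Such a half-site was found in 2 of the 16 windows (12.5%), against 6.63% of 35116 windows of all genes. It began at position -122 from the start site of the printed window in FAS and at -49 in SESN1, both genes that were called in no comparison. The other windows of these genes, at other start sites, held no match. The CDKN1A, TP53I3, PPM1D and PMAIP1 windows held no exact match, and the well-known p53 elements of CDKN1A lie further upstream than the window reaches. The ATF4-C/EBP element TGATGNAA was in 0 of the 16 windows, against 3.62% of all windows. TGACGT, looked for after the windows had been seen, was in 2 of 16 (12.5%, against 7.98%). PPM1D held it at -61 and -59 as overlapping matches on opposite strands, and PMAIP1 at -56. A match is a description of these letters only. The absence of one says nothing of sites elsewhere or of sites with mismatches inside the windows.

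Most measured targets moved, but not all in the same direction. Against siNT, siMESH1 raised 3 of the 8 genes (CDKN1A, PPM1D, TP53I3) and lowered 1 (PMAIP1), while over all genes 2.82% were called higher and 5.37% lower. siATF4 raised 4 (the same 3 genes and GADD45A) and lowered 0 by limma, where PMAIP1 passed the p (adjusted p = 0.0016) and not the fold minimum, against 2.49% and 4.03% of all genes. siMESH1+siATF4 raised the 4 genes raised by siATF4 and lowered PMAIP1, against 4.4% and 5.25%. MDM2, FAS and SESN1 were called in none of these comparisons. The median over the 8 genes was 0.17, 0.46 and 0.36 in these comparisons, in the same order, and the median over all genes was 0.028, 0.020 and 0.013. No called direction of a member turned under any scaling tried.

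**Figure D1:**
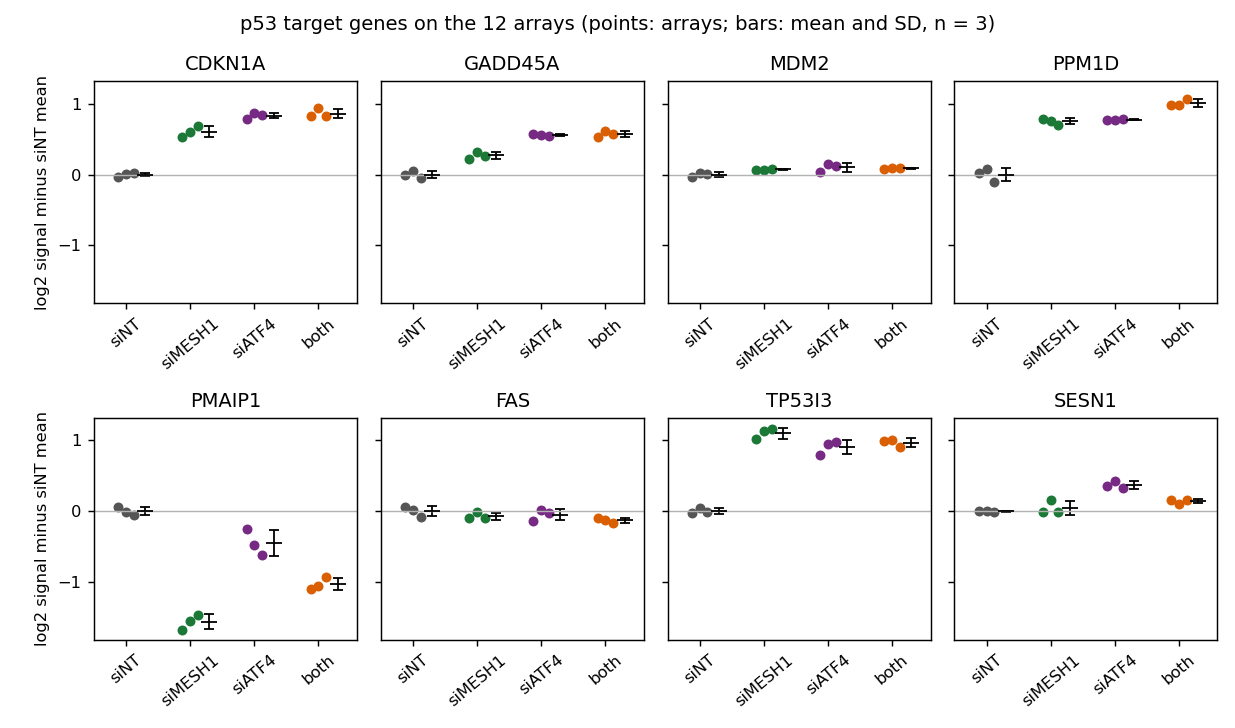
Each panel plots 1 p53 target gene, with the 4 siRNA groups on the x axis ("both" is siMESH1+siATF4) and the log2 signal minus the siNT mean on the y axis. Points are arrays and bars the mean and SD (n = 3). CDKN1A, PPM1D and TP53I3 lie above siNT on all silenced arrays, PMAIP1 lies below on all of them, and MDM2 and FAS stay near 0.

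CDKN1A (chr6:36676463-36687332, probe set 202284_s_at) was 0.53, 0.60 and 0.68 on the siMESH1 arrays, 0.79, 0.87 and 0.85 in siATF4, and 0.82, 0.94 and 0.82 in siMESH1+siATF4, with siNT between -0.03 and 0.02. Every silenced array lay above every siNT array. The rise was 1.52-fold in siMESH1 (0.60 ± 0.05, SE, adjusted p = 2.6e-06), 1.78-fold in siATF4 (0.83, adjusted p = 2.1e-07) and 1.82-fold with both siRNAs (0.86, adjusted p = 7.4e-08). siATF4 and siMESH1+siATF4 differed by 0.03 with a 95% interval from -0.09 to 0.15, which is within the spread of the arrays. The siMESH1 minus siATF4 difference was -0.23 (adjusted p = 0.0056), under the fold minimum.

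GADD45A (chr1:67685201-67688334, probe set 203725_at), which encodes a stress protein that binds PCNA and p21, was called higher against siNT in siATF4 and siMESH1+siATF4. It was 0.57, 0.56 and 0.54 on the siATF4 arrays and 0.53, 0.62 and 0.58 with both siRNAs. In siMESH1 it was 0.22, 0.32 and 0.27, above all siNT arrays (-0.04 to 0.05) but below all arrays in which ATF4 was silenced. The differences from siNT were 0.56 in siATF4 (adjusted p = 2.4e-06) and 0.58 in siMESH1+siATF4 (adjusted p = 1.0e-06). In siMESH1 the difference was 0.27 (adjusted p = 7.8e-04), which missed the fold minimum and passed it (0.60) only when arrays were centred on the housekeeping mean.

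PPM1D (chr17:60600193-60666280, probe set 204566_at) was 0.79, 0.76 and 0.70 in siMESH1 and 0.78, 0.77 and 0.78 in siATF4. These 2 groups overlapped, with a difference of -0.02 and a 95% interval from -0.14 to 0.10. With both siRNAs PPM1D was 0.98, 0.98 and 1.07, above every array of either single silencing, while siNT ranged from -0.10 to 0.08. The rises against siNT were 1.68-fold, 1.71-fold and 2.02-fold, with adjusted p = 3.4e-07, 3.9e-07 and 1.8e-08. The step from a single silencing to both was 0.26 from siMESH1 (adjusted p = 0.0031) and 0.24 from siATF4 (adjusted p = 0.014), each under the fold minimum.

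MDM2 (chr12:68808172-68850686), the other feedback gene, differed little from siNT. The mean of its 5 probe sets was 0.07, 0.07 and 0.08 in siMESH1, 0.03, 0.14 and 0.13 in siATF4, and 0.08, 0.10 and 0.09 with both siRNAs, with siNT from -0.03 to 0.02. The 95% intervals of the differences ran from -0.03 to 0.17, from 0.0019 to 0.20 and from -0.01 to 0.19, none of which reaches the fold minimum. Its probe sets disagreed: 217542_at was 0.22, 0.39 and 0.28 in siATF4 and 0.32, 0.35 and 0.48 with both siRNAs, above all siNT arrays (differences of 0.30, adjusted p = 0.0033, and 0.38, adjusted p = 3.5e-04, both under the fold minimum), whereas 205386_s_at lay at -0.07 and -0.24 in the same comparisons, not past the adjusted p. MDM4, a relative of MDM2 that also inhibits p53, was at -0.09, 0.02 and -0.07 in siMESH1, siATF4 and siMESH1+siATF4 and was not called.

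**Figure D2:**
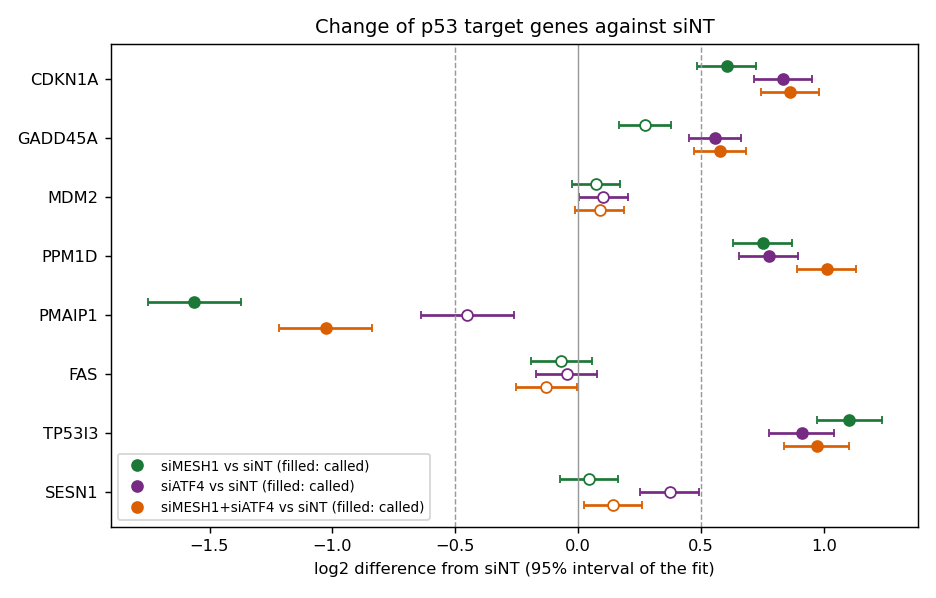
The x axis is the log2 difference from siNT with the 95% interval of the limma fit, and each row is a p53 target gene with 1 point for each silenced group (n = 3 arrays). Filled points passed the call rule and dashed lines mark its fold minimum of 0.5. PMAIP1 in siMESH1 (-1.56) lies furthest below 0 and TP53I3 in siMESH1 (1.10) furthest above.

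PMAIP1 (chr18:59899996-59904305) was the only measured member called lower in any comparison with siNT. The mean of its 2 probe sets was -1.67, -1.55 and -1.47 in siMESH1, -0.25, -0.48 and -0.62 in siATF4, and -1.10, -1.05 and -0.93 in siMESH1+siATF4, with siNT from -0.05 to 0.06. No array of any silenced group overlapped siNT or another silenced group, and siMESH1+siATF4 stood between the single silencings. PMAIP1 was 2.95-fold lower in siMESH1 (-1.56 ± 0.09, SE, adjusted p = 2.7e-08) and 2.04-fold lower with both siRNAs (-1.03, adjusted p = 1.1e-06). In siATF4 it was at -0.45 (adjusted p = 0.0016), under the fold minimum, and was called (-0.55) without siATF4 replicate 1.

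With ATF4 silenced as well, PMAIP1 was 1.45-fold higher than in siMESH1 alone (0.54, adjusted p = 4.9e-04), the only member called there, against 3.42% of all genes called higher and 2.68% lower. That call was lost under both housekeeping scalings (0.43 and 0.44) and without siMESH1 replicate 1 (0.48) or siMESH1+siATF4 replicate 3 (0.49). Against siATF4 it was 1.49-fold lower with both siRNAs (-0.58, adjusted p = 0.0010), again the only member called, against 0.351% of all genes higher and 1.28% lower. That call was lost without siATF4 replicate 1 (-0.48), under housekeeping median scaling (-0.49) and with the methods' t-test after Benjamini-Hochberg adjustment (adjusted p = 0.091). Between the single silencings PMAIP1 was 2.16-fold lower in siMESH1 than in siATF4 (-1.11, adjusted p = 6.9e-07), and no other member was called, against 3.91% of all genes higher and 4.75% lower.

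The 2 PMAIP1 probe sets moved in the same direction but not by the same amount. In siATF4, 204285_s_at was -0.01, -0.41 and -0.39, overlapping siNT, and its difference of -0.27 did not pass (adjusted p = 0.099), while 204286_s_at was -0.49, -0.55 and -0.85 and was called (-0.63, adjusted p = 1.7e-04). In siMESH1 both were called, at -1.43 and -1.69. In the comparison of siMESH1+siATF4 with siMESH1 the probe set 204286_s_at was called (0.64) and 204285_s_at was not (0.43), and in that with siATF4 the reverse held (-0.42 and -0.73).

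**Figure D3:**
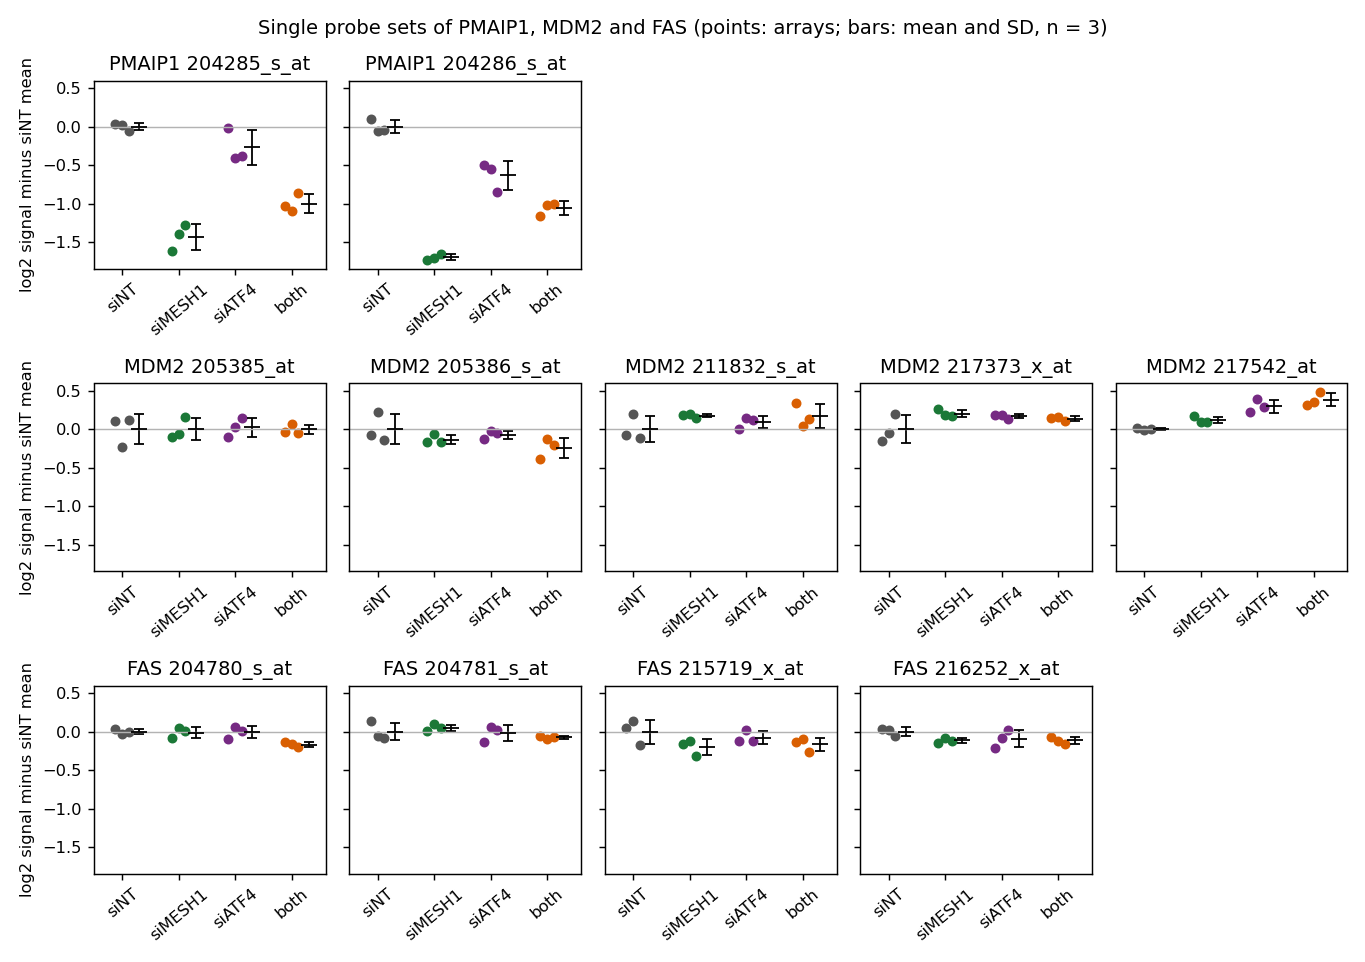
Each panel plots 1 probe set of PMAIP1 (top), MDM2 (middle) or FAS (bottom) by siRNA group, with the log2 signal minus the siNT mean on the y axis, arrays as points and the mean and SD as bars (n = 3). Both PMAIP1 probe sets are lowest in siMESH1, and of the 5 MDM2 probe sets 217542_at rises furthest, to 0.38 with both siRNAs.

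FAS (chr10:88964050-89017059), the gene of a death receptor, was measured by 4 probe sets. Their mean was -0.10, -0.01 and -0.10 in siMESH1, -0.14, 0.02 and -0.02 in siATF4, and -0.10, -0.12 and -0.17 with both siRNAs, with siNT from -0.08 to 0.06. The single silencings overlapped siNT. The siMESH1+siATF4 arrays lay below it, at -0.13 on average (95% interval from -0.25 to -0.0066, adjusted p = 0.098). Single FAS probe sets lay between -0.20 and 0.05 in siMESH1 and between -0.17 and -0.07 with both siRNAs.

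TP53I3 (PIG3, chr2:24077433-24084834, probe set 210609_s_at) encodes an NADPH-dependent quinone oxidoreductase and showed the highest rise among the members under siMESH1. It was 1.02, 1.13 and 1.16 in siMESH1, 0.80, 0.95 and 0.97 in siATF4, and 0.99, 1.01 and 0.90 in siMESH1+siATF4, with siNT from -0.03 to 0.04. The siMESH1 arrays stood above all others and the other silenced groups overlapped. The rises were 2.15-fold (1.10 ± 0.06, SE, adjusted p = 2.5e-08), 1.88-fold (0.91, adjusted p = 2.4e-07) and 1.96-fold (0.97, adjusted p = 6.5e-08). siMESH1 exceeded siATF4 by 0.19 (adjusted p = 0.027), and the combination differed from siMESH1 by -0.13 (95% interval from -0.26 to 0.00043) and from siATF4 by 0.06 (95% interval from -0.07 to 0.19).

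SESN1 (chr6:108984309-109094846, probe set 218346_s_at), which encodes a sestrin that restrains mTORC1 signalling, was 0.35, 0.43 and 0.33 in siATF4, above every other array. In siMESH1 it was -0.01, 0.15 and -0.01 and overlapped siNT, whose arrays lay between -0.0044 and 0.0046. With both siRNAs it was 0.16, 0.11 and 0.15. The difference from siNT was 0.37 in siATF4 (adjusted p = 2.1e-04), under the fold minimum and called (0.52) only with housekeeping mean scaling, and 0.14 with both siRNAs (adjusted p = 0.060). The step from siATF4 to both was -0.23 (adjusted p = 0.016), so SESN1 was lower with MESH1 silenced as well, by less than the fold minimum.

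The combined silencing did not add the single effects up. On the log2 scale the sum of the 2 single differences was 1.44 for CDKN1A, against 0.86 measured with both siRNAs. For TP53I3 the sum was 2.01 and the measured difference 0.97. For PPM1D they were 1.52 and 1.01, and for PMAIP1 -2.01 and -1.03.

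The test of this shortfall is the interaction, the effect of siMESH1 in cells with ATF4 silenced minus its effect in cells without. It was called for 4 of the 8 genes, 3 lower and 1 higher, against 0.853% of all genes called lower and 3.46% higher. TP53I3 had the furthest value, -1.04 (± 0.09, SE, adjusted p = 9.9e-06), followed by CDKN1A at -0.57 (adjusted p = 3.4e-04) and PPM1D at -0.51 (adjusted p = 8.3e-04). PMAIP1 was at 0.99 (± 0.12, SE, adjusted p = 1.9e-04). The PPM1D call rests close to the fold minimum: it was lost with array median centring (-0.48) and without any of 4 single arrays, siNT replicate 3 (-0.46), siMESH1 replicate 1 (-0.495), siMESH1+siATF4 replicate 1 (-0.4985) or siMESH1+siATF4 replicate 2 (-0.497). GADD45A (-0.25, adjusted p = 0.034) and SESN1 (-0.27, adjusted p = 0.038) passed the adjusted p and not the fold minimum. MDM2 (-0.09) and FAS (-0.01) passed neither. HDDC3 was not analysed, and the division of siRNA in siMESH1+siATF4 is not given. Weaker MESH1 silencing in that group and an effect of silencing ATF4 therefore cannot be told apart in the interaction.

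**Figure D4:**
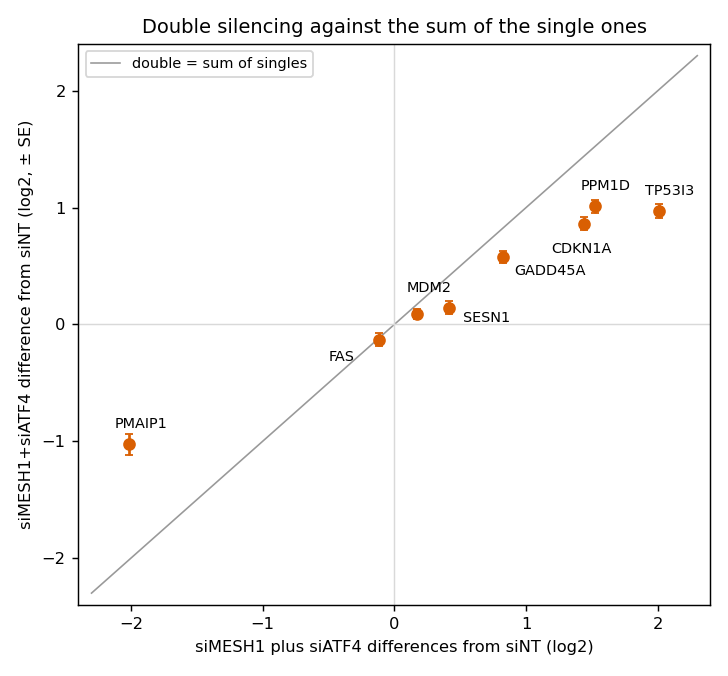
The x axis is the sum of the siMESH1 and siATF4 log2 differences from siNT and the y axis the difference measured in siMESH1+siATF4, with its SE, for each of the 8 genes (n = 3 arrays a group). The line marks equality. TP53I3, CDKN1A, PPM1D, SESN1 and GADD45A lie below it and PMAIP1 above it, all nearer to 0 than their sums.

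The genes nearest to CDKN1A over the 12 arrays, by root mean square difference of log2 values, were FUCA1 (0.084), GLIPR1 (0.11) and TUFT1 (0.12). FUCA1, a lysosomal fucosidase gene that is itself a p53 target, was at 0.56, 0.87 and 0.88 in siMESH1, siATF4 and siMESH1+siATF4. PPM1D was nearest to NEDD4L (0.058), FN1 (0.078) and TXNIP (0.080), whose means with both siRNAs were 1.00, 1.04 and 1.06. TP53I3 was nearest to CLSTN2 (0.085), HSPB2 (0.13) and ITGA1 (0.16), each with means near 1 in siMESH1: 1.06, 0.93 and 1.03.

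Other p53 targets, 37 measured of 47 listed, included genes called in both directions. In siMESH1 3 were called higher and 2 lower (2.82% and 5.37% of all genes were), in siATF4 5 and 2 (2.49% and 4.03%), and in siMESH1+siATF4 5 and 2 (4.4% and 5.25%). Their medians were 0.07, 0.08 and 0.000041. Housekeeping mean scaling gave 9 higher and 0 lower in siMESH1, 5 and 1 in siATF4, and 9 and 2 with both siRNAs.

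Among the growth arrest and signalling targets (9 measured of 9), TRIM22 alone was called, at 0.59 in siMESH1. Among apoptosis targets (14 of 17) TNFRSF10B, which encodes the TRAIL receptor DR5, was -0.81 in siMESH1 (adjusted p = 9.1e-08), 0.23 in siATF4 and -0.34 with both siRNAs. Its 3 probe sets ranged from -1.42 to -0.42 in siMESH1, and the fall was not called under housekeeping mean scaling (-0.48). ZMAT3, which encodes an RNA-binding protein, rose in siMESH1 (0.59) and stood at -0.38 and -0.36 where ATF4 was silenced, a step of -0.95 from siMESH1 to siMESH1+siATF4. PERP, which encodes a membrane protein of cell adhesion, fell by 1.53 in siATF4 and by 1.53 in siMESH1+siATF4 and was 0.32 in siMESH1.

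Of the DNA repair targets (3 of 5), XPC, a damage sensor of nucleotide excision repair, rose in siATF4 (0.65) and with both siRNAs (0.55). Of the metabolism and autophagy targets (5 of 9), FUCA1 rose in all silenced groups. DRAM1, which promotes autophagy, was called higher with both siRNAs (0.79). It missed only the fold minimum in siMESH1 (0.33, adjusted p = 1.4e-04) and in siATF4 (0.34, adjusted p = 1.3e-04). STEAP3, a metalloreductase, fell by 0.50 in siATF4. That call was lost under both housekeeping scalings (-0.36 and -0.47), without siNT replicate 1 (-0.49) or 2 (-0.47) and without siATF4 replicate 2 (-0.48). Of the secreted factors (6 of 7), CX3CL1 and LIF rose in siATF4 (0.82 and 0.60) and with both siRNAs (0.89 and 0.67). GDF15 rose in siATF4 (0.51), a call lost with array median centring (0.49), without siNT replicate 1 (0.46) and without siATF4 replicate 2 (0.48) or 3 (0.496). IGFBP3, a carrier of insulin-like growth factors, fell by 0.74 in siMESH1 (-0.41, not called, under housekeeping mean scaling) and by 1.08 with both siRNAs.

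Of the genes that act on p53 (15 measured of 18), 3 were called lower in siMESH1, where 5.37% of all genes were, 1 in siATF4 (4.03%) and 2 with both siRNAs (5.25%). With both siRNAs 1 was called higher (4.4%). The genes called in siMESH1 were USP7, which deubiquitinates p53 and MDM2 (-0.72), and the damage kinases PRKDC (-0.75) and CHEK2 (-0.57), and under housekeeping mean scaling all 3 calls were lost (-0.39, -0.42 and -0.24) while 4 other regulators became called higher. CHEK2 was also lost without siNT replicate 2 (-0.48). CHEK1, a checkpoint kinase, fell by 0.77 in siATF4 and by 0.65 with both siRNAs, as did USP7 with both (-0.65), and these falls with both siRNAs were lost under housekeeping mean scaling (-0.42 and -0.43). TP53BP1, a scaffold at DNA breaks, was 0.53 with both siRNAs. In siMESH1 (0.30, adjusted p = 6.0e-04) and siATF4 (0.29, adjusted p = 0.0010) it missed only the fold minimum.

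Genes known to be shut down through p53, p21 and the DREAM repressor complex, which are cell cycle genes, were lower in nearly every case. Of 23 measured of 24 listed, 22 were called lower in siMESH1, 23 in siATF4 and 23 with both siRNAs, with medians of -1.47, -1.29 and -1.78. Over all genes 5.37%, 4.03% and 5.25% were called lower. CHEK1 (-0.43) was the exception in siMESH1. CCNB1 and CCNB2, the mitotic cyclins, fell throughout. CCNB1 was -1.74, -1.74 and -2.34 in the order of these medians, CCNB2 -1.91, -1.82 and -2.74, and the survivin gene BIRC5 -1.72, -1.26 and -2.01. The kinase gene CDK1 lay between -2.44 and -1.76. The interaction was called higher in all 23, with a median of 1.03, against 3.46% of all genes called higher. Housekeeping mean scaling kept 20, 22, 21 and 19 of these calls in the same 4 comparisons, with no sign turned. These genes are expressed mainly in dividing cells, and the part of CDKN1A in their change was not tested.

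**Figure D5:**
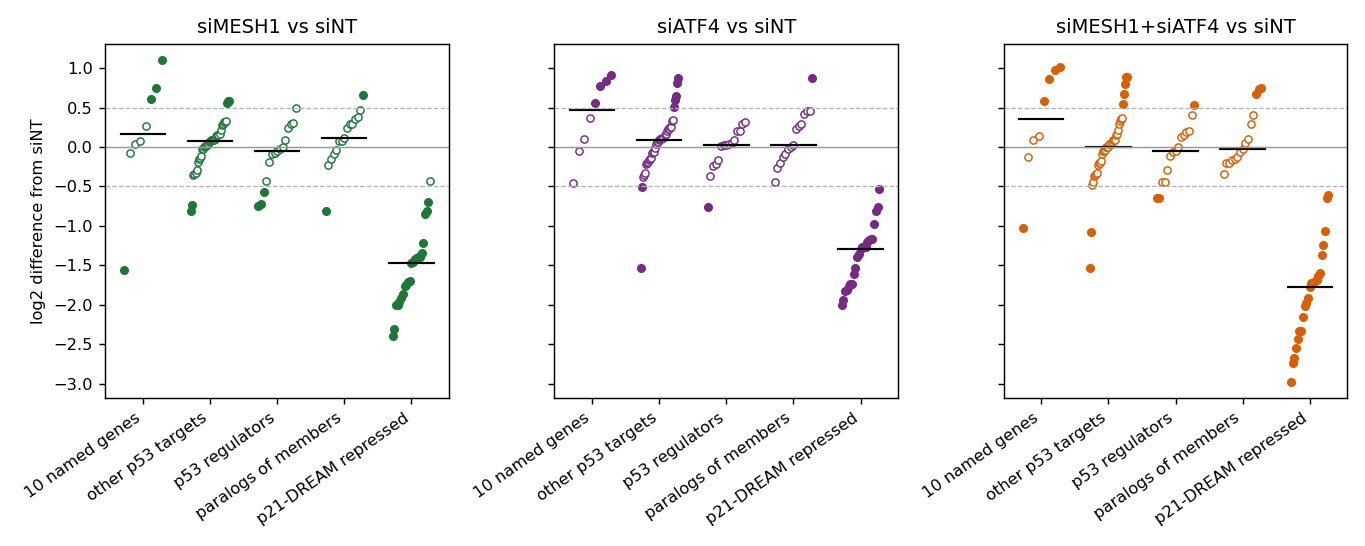
Each panel is a comparison with siNT and each column a gene list: the 8 measured members of the 10 named p53 targets, other p53 targets (37), p53 regulators (15), paralogs of the members (15) and p21-DREAM repressed genes (23). Points are genes on a log2 scale, filled where called, and bars are list medians. The p21-DREAM column lies wholly below 0 in each panel, while the other columns spread around 0.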

How the data were processed

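Total RNA of RCC4 cultures was hybridised to Affymetrix human U133 arrays, 12 in all. On the deposited log2 scale, per the labels, the authors computed signals by RMA in Affymetrix Expression Console (versions not given in the sources used here) and subtracted the siNT mean per probe set. In each probe set that mean lay within 0.00012 of 0, values ran from -3.77 to 3.41, and 0 pairs of arrays were identical.

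Of 22277 probe sets, 62 were controls, 19064 had 1 symbol (19052 of them matched by Entrez identifier), 1043 several and 2108 none. A gene was the mean of all its single-symbol probe sets, and 4310 genes had several. Without levels, no filter on low signal was possible, and signal over background is unknown. Groups came from the labels, and 0 columns lacked a sample.

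All 12 arrays entered 1 fit (lmFit and eBayes, limma 3.58.1, R 4.3.3) with a mean per group, 8 residual and 4.32 prior degrees of freedom, and Benjamini-Hochberg adjustment over 11963 genes. The code was tested on simulated data. The study's plain test, other scalings, probe set rules, a robust fit, a replicate block and leaving out each array were tried as alternatives. Python 3.11.15, pandas 2.3.3, numpy 2.4.6 and matplotlib 3.10.9 were used for tables and figures. Promoters and coordinates are RefSeq's (GRCh38.p14).

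The members and the lists were chosen with earlier results of these data known: other p53 targets (growth arrest and signalling, apoptosis, DNA repair, metabolism and autophagy, secreted factors), p53 regulators, genes repressed through p53, p21 and the DREAM complex, paralogs of the members, and markers of renal epithelium and of leukocytes and endothelium. Some genes stand in 2 lists. Named were all members, MDM4, up to 4 called genes of each list and comparison with the smallest adjusted p, and the 3 genes nearest to CDKN1A, TP53I3 and PPM1D. HDDC3, BTG2 and BBC3 were not analysed here.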

Additional observations from a re-analysis of the deposited data

Results flagged for a closer look

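The effect of siMESH1 differed between cells with and without ATF4 silencing, by the limma interaction test with adjustment over all genes, for the following genes named here or taken by the rule for named genes. Among the members these were CDKN1A (-0.57), PPM1D (-0.51), TP53I3 (-1.04) and PMAIP1 (0.99). Among the other lists they were BIK (-0.60), FUCA1 (-0.55), ZMAT3 (-0.57), CHEK1 (0.55), PRKDC (0.52), and the cell cycle genes AURKB (1.05), BIRC5 (0.97), BUB1B (1.31), CCNB1 (1.15), CCNB2 (0.999), CDC20 (1.37), CDK1 (1.32), MAD2L1 (1.66), MCM6 (1.13), MYBL2 (1.16) and TOP2A (1.03). CA12 (0.89) and KRT18 (0.67), markers named after their values were seen, were called too, as were TXNIP (-0.61), CLSTN2 (-0.91), HSPB2 (-0.70) and ITGA1 (-0.81), which were picked for their likeness to PPM1D or TP53I3 on these arrays. The values of CHEK1 and PRKDC were no longer called under housekeeping mean scaling (0.29 and 0.26) or median scaling (0.42 and 0.39), nor without the probe sets that may cross-hybridise (0.46 and 0.39). PRKDC was also lost without siNT replicate 2 (0.49) or 3 (0.49), siMESH1 replicate 3 (0.46), siATF4 replicate 1 (0.47) or siMESH1+siATF4 replicate 2 (0.47), BIK and FUCA1 without siNT replicate 3 (-0.4988 and -0.4986), and KRT18 under housekeeping mean scaling (0.41). With 3 arrays a group, no array could be examined as an outlier.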

How the results depend on the processing

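The members' calls against siNT and in the interaction stayed within 1.5 times their counts under the alternatives run. These were 23 against siNT and 20 in the interaction, which the fit of 2 groups alone and the methods' t-test could not give. No difference of a member or other named gene that was called in the main fit or in the alternative turned its sign. Signs of differences called in neither were not compared. Over the 56 results of the members, 1233 values kept their side of the threshold, 12 lost a call and 19 gained one; over 116 results of other named genes the numbers were 2449, 58 and 32. In siMESH1+siATF4 vs siMESH1 the count of members called was 1, and it was 0 under housekeeping mean and median centring, 4 with no fold minimum (CDKN1A, GADD45A, PMAIP1, PPM1D), and 0 to 1 over the arrays left out in turn. In siMESH1+siATF4 vs siATF4 it was 1, and 0 under housekeeping median centring, 3 with no fold minimum (PMAIP1, PPM1D, SESN1), 0 by the methods' t-test after Benjamini-Hochberg adjustment, where the adjusted p of PMAIP1 was 0.091, and 0 to 1 over the arrays left out. In siMESH1 vs siATF4 it was 1, and 5 with no fold minimum (CDKN1A, GADD45A, PMAIP1, SESN1, TP53I3). The methods' t-test at its own threshold gave 4, 4 and 5 members against siNT in siMESH1, siATF4 and siMESH1+siATF4, and the same counts after adjustment. In the interaction GADD45A (-0.51) and SESN1 (-0.53) were also called under housekeeping mean centring. Apart from the removal of the fold minimum and of arrays, which act by construction, the cause was not tested. The replicate numbers do not pair the cultures (same-number correlations of deviations from -0.19 to 0.10 over 18 pairs, others from -0.17 to 0.24 over 36), and with the replicate block the counts of members were unchanged, 4, 4 and 5 against siNT and 4 in the interaction. Over all genes, calls in siMESH1 vs siNT rose from 980 to 2817 with housekeeping mean and 1591 with housekeeping median centring (1216 higher, 375 lower) and to 4019 with no fold minimum. The last setting gave 3421 against 780 in siATF4 vs siNT, 4254 against 1154 in siMESH1+siATF4 vs siNT, 3348 against 730 in siMESH1+siATF4 vs siMESH1, 1403 against 195 in siMESH1+siATF4 vs siATF4, 4004 against 1036 in siMESH1 vs siATF4 and 1424 against 516 in the interaction, where housekeeping mean centring gave 1457; it gave 1877 in siMESH1+siATF4 vs siNT. The methods' t-test after adjustment gave 122 in siMESH1+siATF4 vs siATF4. Housekeeping mean centring turned the split of higher and lower calls from 409 and 321 to 262 and 549 in siMESH1+siATF4 vs siMESH1, from 42 and 153 to 91 and 113 in siMESH1+siATF4 vs siATF4, and from 468 and 568 to 1026 and 302 in siMESH1 vs siATF4. Without absolute levels, values near background could not be told from others.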

Other observations

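Paralogs and close relatives of the members (15 measured of 19) had 1 called higher and 1 lower in siMESH1, 1 and 0 in siATF4, and 3 and 0 with both siRNAs. Over all genes the shares called higher and lower were 2.82% and 5.37%, 2.49% and 4.03%, and 4.4% and 5.25% in the same order. PPM1A, a phosphatase of the same family as PPM1D, rose in siMESH1 (0.65) and with both siRNAs (0.67) and was 0.45 in siATF4. BIK, a BH3-only gene like PMAIP1, rose where PMAIP1 did not, at 0.88 in siATF4 and 0.74 with both siRNAs, and was 0.47 in siMESH1. CDKN1C, which encodes the CDK inhibitor p57 of the p21 family, rose with both siRNAs (0.73), with 5 probe sets between 0.017 and 1.13. In siMESH1 (0.30, adjusted p = 8.8e-04) and siATF4 (0.46, adjusted p = 3.4e-05) CDKN1C missed only the fold minimum. TOB1, of the BTG family, and TNFRSF1A, a receptor gene related to FAS, stood lower with both siRNAs than in siMESH1 (-0.51 and -0.52), calls lost for TOB1 with array median centring (-0.4997) and without siMESH1 replicate 3 (-0.48) or siMESH1+siATF4 replicate 3 (-0.47), and for TNFRSF1A without siMESH1 replicate 1 (-0.46) or siMESH1+siATF4 replicate 1 (-0.496).

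The list of 11 renal epithelial and clear cell carcinoma markers had 9 measured genes, of which 2 were called lower in siMESH1, CA12 (-1.61) and KRT18 (-0.54), named here after their values were seen. Over all genes 5.37% were called lower there. The KRT18 call was lost under both housekeeping scalings (-0.21 and -0.32) and without siNT replicate 2 (-0.49). In siATF4 0 were called by limma (2.49% of all genes were called higher and 4.03% lower). In siMESH1+siATF4 1 was called higher and 1 lower (4.4% and 5.25% of all genes).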
